A study of Mus musculus with 6 samples.

Results

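Uncoupling proteins and thermogenic effectors were examined in the inguinal white fat of C57BL/6 mice, a depot under the skin. The 7 members, taken from the gene count table by symbol, were the uncoupling proteins Ucp1, Ucp2 and Ucp3, the deiodinase Dio2, the mitochondrial membrane protein Letmd1 and the channels Kcnk3 and Otop1, out of 52550 genes. Fat pads of the A2B1 group (n = 3 libraries) had received injections of adeno-associated virus (AAV) carrying the mouse Hnrnpa2b1 coding sequence, an RNA-binding protein that acts in splicing. Control pads (n = 3 libraries) had received an AAV labelled as scrambled control, which the design text also calls AAV GFP, so all animals carried a viral vector. No source used here gives the vector's promoter, the dose, the time after injection or the age of the mice. The source label reads adipocytes, whereas the tissue label and the extraction from whole fat describe tissue. Whether each library is a different mouse is not stated, so p-values describe library spread alone, part of which may be technical.

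Thermogenic adipocytes burn fuel as heat. UCP1, a carrier of the inner mitochondrial membrane, lets protons flow back into the matrix without ATP synthesis, and its gene is switched on in brown fat and in beige cells of white fat after adrenergic stimulation through cAMP. Its relatives UCP2 and UCP3 belong to the same carrier family but are not known to generate heat in this way: Ucp2 is expressed in many cell types, immune cells among them, and Ucp3 mainly in skeletal muscle and brown fat. The other members act around this pathway, in local thyroid hormone activation, mitochondrial structure and ion flow across the plasma membrane.

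The promoters of 3 members are shown because Ucp1 had the largest fitted difference, Ucp2 had the opposite sign, and Dio2 carries a complete cAMP response element yet had overlapping groups. Each sequence is the 250 bases before the RefSeq transcription start (GRCm38.p6), read 5′ to 3′ on the gene's strand.
Ucp1, chr8:83290098-83290347, plus strand: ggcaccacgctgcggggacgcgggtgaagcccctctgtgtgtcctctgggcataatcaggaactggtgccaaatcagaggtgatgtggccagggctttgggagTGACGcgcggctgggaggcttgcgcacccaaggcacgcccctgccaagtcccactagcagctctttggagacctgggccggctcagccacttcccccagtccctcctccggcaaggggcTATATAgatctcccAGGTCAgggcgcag
Ucp2, chr7:100493108-100493357, plus strand: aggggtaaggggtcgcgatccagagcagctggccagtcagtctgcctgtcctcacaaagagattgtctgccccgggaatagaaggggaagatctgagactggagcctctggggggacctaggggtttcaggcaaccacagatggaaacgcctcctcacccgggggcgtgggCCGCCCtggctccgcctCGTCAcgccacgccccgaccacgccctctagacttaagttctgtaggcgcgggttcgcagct
Dio2, chr12:90739039-90739288, minus strand: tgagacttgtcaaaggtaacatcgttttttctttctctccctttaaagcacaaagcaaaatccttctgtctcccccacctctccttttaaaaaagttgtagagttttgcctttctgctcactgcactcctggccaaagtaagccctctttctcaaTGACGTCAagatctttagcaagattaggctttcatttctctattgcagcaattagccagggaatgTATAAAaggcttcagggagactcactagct
Capitals mark matches, on either strand, to the cAMP response element TGACGTCA, its shorter core TGACG, the nuclear receptor core AGGTCA, the TATA box TATAAA and its variant form TATATA, the GC box GGGCGG and the E box CACGTG. The shorter core lies within the complete element. The RefSeq start of Dio2 lies upstream of the GENCODE gene.

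The Dio2 window held the complete cAMP response element at 95 to 88 bases before the start, as did 1.55% of 32851 RefSeq promoter windows of this length. The Ucp1 window held the shorter core TGACG, present in 17.8% of all windows, TATATA (5.25%) and AGGTCA (14.0%). The Ucp2 window held the shorter core and a GC box (32.7%), both as their reverse complements. TATAAA, found in Dio2, occurred in 12.4% of windows, and CACGTG, in 6.02% of windows, had no match in the members. The Ucp3 window held AGGTCA at 2 places. A match describes letters in a window and is no evidence of a bound factor. Of the 7 members, 6 had a promoter entry, all except Kcnk3.

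As a check of the labels, Hnrnpa2b1 had 763, 789 and 748 CPM (read counts scaled to a common library size) in A2B1 libraries 1 to 3 and 555, 525 and 605 in controls 1 to 3 (adjusted p = 0.0654, edgeR's quasi-likelihood test). Library totals ran from 72961324 to 86663359 counts. Adipocyte markers summed to between 30464 and 31988 CPM in A2B1 libraries and between 27217 and 32212 in controls. Some libraries stood apart. A2B1 library 1 had 47.6 CPM over a list of 6 epithelial markers against 1.43 to 8.38 elsewhere, nearly all of it Krt8, Krt18 and Cdh1. The other markers of that list were low there: Epcam was at 0.0724 CPM, its lowest of the 6 libraries, Krt5 had 3 counts and Krt14 had 0. Control 3 had 188 CPM of skeletal muscle markers against 3.59 to 26.2 in the other 5 libraries. Control 1 had 367 CPM of lymphocyte markers against 29.2 to 82.7 in the others. In bulk tissue, fewer cells of a type and less RNA per cell cannot be told apart. Each member is therefore also given with 1 library left out.

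Ucp1 and Otop1 had the highest fitted differences among the members, Letmd1 and Kcnk3 had small positive ones, Ucp2 a negative one, and Ucp3 and Dio2 had overlapping groups. In edgeR's test 0 of the 7 members passed an adjusted p of 0.05, while 1.82% of the 19146 genes tested did. DESeq2 called 4 members (Ucp1, Ucp2, Letmd1 and Otop1), with 16.2% of all genes called. Limma-voom called 1, Ucp1, with 2.44% of all genes called. At an unadjusted p under 0.05 in edgeR there were 5 members, 4 higher and 1 lower, beside 24.2% of all genes. The same 5 members had groups that did not overlap, as had 30.6% of all genes. A log2 fold change above 0 was found for 4 of 7 members and for 50.3% of all genes. The median log2 fold change of the members was 0.30, and that of all tested genes 0.00. All 7 passed the filter on low counts, Ucp1 with at least 10 counts in 5 of the 6 libraries. For single values, an exact permutation test of 3 against 3 libraries cannot go below p = 0.1, which those 5 members reached (two-sided).

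**Figure D1:**
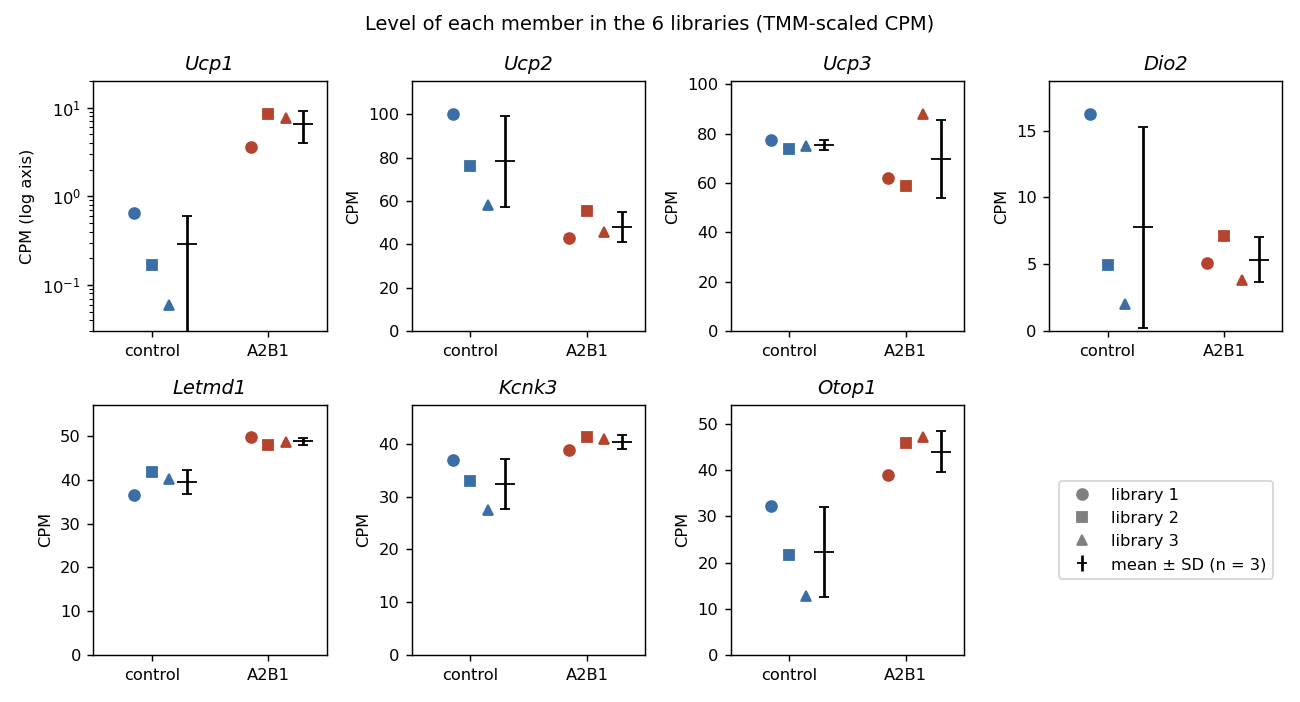
CPM of each member in the 3 control (blue) and 3 A2B1 (red) libraries; symbols give the library number and black marks the mean ± SD (n = 3). The Ucp1 axis is logarithmic, and its lower control SD, which falls below 0, is not fully shown. Ucp1, Otop1, Letmd1 and Kcnk3 are higher in all A2B1 libraries than in all controls, Ucp2 is lower, and Ucp3 and Dio2 overlap.

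Ucp1 (ENSMUSG00000031710, mm10 chromosome 8, 83290352 to 83298452, plus strand) had the lowest level of the members in controls and the widest gap between the groups. Its level was 3.59, 8.43 and 7.73 CPM in A2B1 libraries 1 to 3 and 0.650, 0.168 and 0.0597 CPM in controls 1 to 3. Every A2B1 library lay above every control, and the nearest pair, A2B1 library 1 and control 1, was also separated by counting error, with exact 95% Poisson intervals of 3.16 to 4.07 and 0.481 to 0.860 CPM. The controls differed among themselves 10.9-fold, and the A2B1 libraries 2.35-fold. The control interval was widest in relative terms in control 3, at 0.0194 to 0.139 CPM from 5 counts.

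The fitted Ucp1 difference was a log2 fold change of 4.50 (SE 0.90), or 22.6-fold with a 95% interval of 4.89 to 104, and edgeR gave an adjusted p of 0.0695. It ranked high among all genes: 191 of 19146 had a log2 fold change at least as large. In the 6 fits that left out 1 library the adjusted p lay between 0.0597 and 0.218, and the log2 fold change between 4.01 (without control 3) and 5.83 (without control 1). Without A2B1 library 1, the library with most Krt8 and Krt18, it was 4.81. Ucp1 remained a low transcript in A2B1 libraries: its mean of 6.58 ± 2.61 CPM (SD, n = 3) stands beside 48.0 ± 6.71 for Ucp2 and 69.8 ± 16.0 for Ucp3. Its exons overlap no other annotated gene.

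Ucp2 (ENSMUSG00000033685, chromosome 7, 100493337 to 100502020, plus strand) had lower values in A2B1 libraries. It stood at 42.9, 55.6 and 45.6 CPM in A2B1 libraries 1 to 3 and at 100.3, 76.4 and 58.4 CPM in controls 1 to 3. All A2B1 libraries were below all controls, but A2B1 library 2 and control 3 lay close together. The log2 fold change was -0.71 (SE 0.21, 95% interval -1.21 to -0.20). Its adjusted p was 0.134 by edgeR, 0.0187 by DESeq2 and 0.122 by limma-voom. Leaving out 1 library gave values from -0.88 to -0.48.

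Macrophage markers were set beside Ucp2. Of the 8 markers 0 passed in edgeR or limma-voom. DESeq2 called 2 lower, beside 16.2% of all genes called, and 2 had an unadjusted p under 0.05 in edgeR, beside 24.2% of all genes. Those shares were near the background, but the list median was -0.82 against 0.00 over all genes. A log2 fold change above 0 was found for 2 of the 8. Their summed level was 339, 528 and 235 CPM in A2B1 libraries 1 to 3 and 876, 636 and 547 CPM in controls 1 to 3, so the groups did not overlap. Control 1 was highest and control 2 next in both measures, while A2B1 libraries 1 and 3 changed places between them. None of the 8 was at 0 in any library. The smallest p-values belonged to Csf1r, the receptor for macrophage growth factor (log2 fold change -0.94, adjusted p = 0.0935), and the lysozyme gene Lyz2 (-1.05, adjusted p = 0.153). Of 8 lymphocyte markers 0 passed in edgeR or limma-voom. In edgeR 5 had an unadjusted p under 0.05, beside 24.2% of all genes, and DESeq2 called 5 lower, beside 16.2%. That edgeR number fell to 1 on leaving out control 1 or any 1 of the A2B1 libraries. It stayed at 5 without control 2 or control 3. The marker sums overlapped, at 29.2 to 59.4 CPM in A2B1 libraries and 40.2 to 367 CPM in controls. The median of the 8 markers was -3.05, and -1.30 without control 1, where their sum was also highest. Among them Cd247, a T cell receptor subunit, had -1.06 (adjusted p = 0.0717) and the B cell gene Cd79b -4.26 (adjusted p = 0.171). The part of these cells in the Ucp2 difference was not tested. Exons of Ucp2 overlap Dnajb13 on the other strand; Dnajb13 had 5.37% to 8.10% as many counts as Ucp2, so a small share of the count is uncertain.

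Ucp3 (ENSMUSG00000032942, chromosome 7, 100472990 to 100486432, plus strand) ends 6904 bases before the start of Ucp2 on the same strand, yet its groups overlapped. It had 62.2, 59.0 and 88.1 CPM in A2B1 libraries 1 to 3 and 77.6, 74.0 and 74.8 CPM in controls 1 to 3. A2B1 libraries held both the highest and the lowest value, and the controls lay within 1.05-fold of each other. The log2 fold change was -0.11 (SE 0.16, 95% interval -0.50 to 0.27; adjusted p = 0.695 in edgeR). The interval leaves room for a fold of 0.709 to 1.20. Leaving out 1 library moved it between -0.31 and -0.00.

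Skeletal muscle, a main site of Ucp3 expression, was unevenly present. Its 9 markers summed to 3.59, 7.06 and 14.2 CPM in A2B1 libraries 1 to 3 and to 22.8, 26.2 and 188 CPM in controls 1 to 3. Myh4, the fast myosin heavy chain, was at 0 in the other 5 libraries and at 57.5 CPM in control 3. Of the 7 muscle markers tested, 0 had a log2 fold change above 0 (median -4.01, and -1.04 without control 3). For 5 of them all A2B1 libraries lay below all controls, as for 15.5% of all genes. In edgeR 5 had an unadjusted p under 0.05, beside 24.2% of all genes. Parvalbumin (Pvalb), at 0 in every A2B1 library, fell (edgeR's adjusted p = 0.0402) and 6 did not pass, while 1.33% of all genes fell. Leaving out any 1 library ended the Pvalb call (adjusted p = 0.0535 to 0.127). Among the controls the marker sum differed 8.23-fold and Ucp3 1.05-fold. The part of muscle RNA in the Ucp3 level was not tested.

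**Figure D2:**
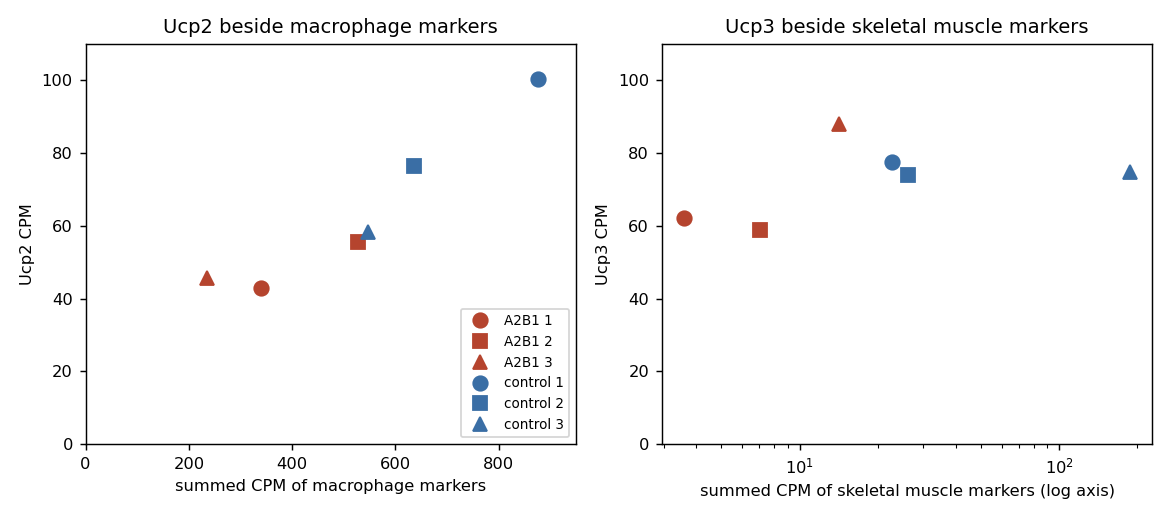
Left, Ucp2 CPM against the summed CPM of 8 macrophage markers in each library; right, Ucp3 CPM against the summed CPM of 9 skeletal muscle markers (log axis). Red marks A2B1 and blue control libraries. Ucp2 and the macrophage sum are both highest in control 1. Ucp3 is 74.8 CPM in control 3, the library with 188 CPM of muscle markers.

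The make-up of uncoupling protein transcripts was compared per transcript length, as RPKM (CPM per kilobase, from CPM and the longest principal GENCODE M21 transcript). Ucp1 held 5.72%, 11.9% and 9.06% of the summed RPKM of the 3 genes in A2B1 libraries 1 to 3, and 0.694%, 0.208% and 0.0807% in controls 1 to 3. The share of Ucp2 was 27.4% ± 5.21 in A2B1 libraries and 38.3% ± 5.80 in controls, and that of Ucp3 63.7% ± 6.98 and 61.3% ± 6.11 (SD, n = 3 each). Ucp3 was thus the leading transcript in all 6 libraries. The total of the 3 genes was 44.6 ± 7.0 RPKM in A2B1 libraries and 50.7 ± 6.09 in controls (SD, n = 3 each), with overlapping groups. With the length of all annotated exons instead, chosen after seeing the data, the Ucp1 shares were 7.79%, 16.1% and 12.0% against 1.01%, 0.297% and 0.113%.

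**Figure D3:**
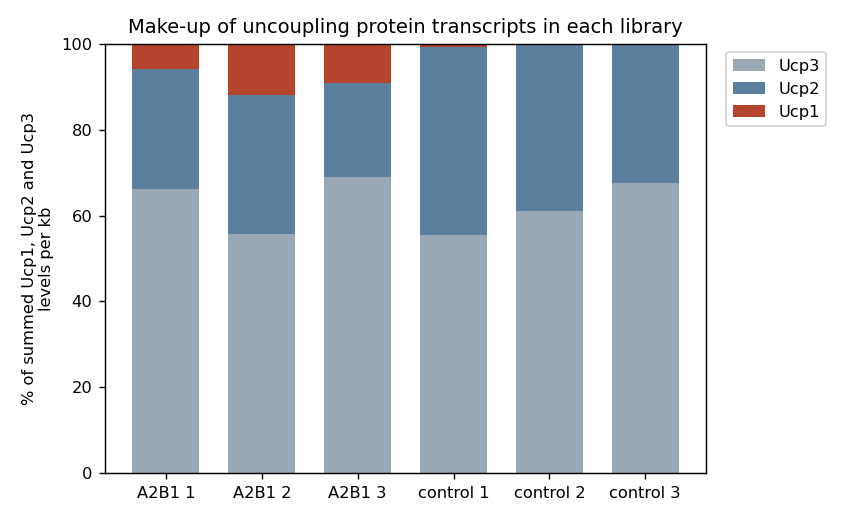
Share of Ucp1 (red), Ucp2 (blue) and Ucp3 (grey) in their summed level per kilobase, in percent, for each library. Ucp1 is 5.72% to 11.9% in A2B1 libraries and at most 0.694% in controls, and Ucp3 is the largest share throughout.

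Ucp1 and Ucp2 were also compared within each library. The log2 ratio of Ucp1 to Ucp2 counts within a library, which needs no scaling between libraries, was -3.58, -2.72 and -2.56 in A2B1 libraries 1 to 3 and -7.25, -8.78 and -9.79 in controls 1 to 3. All A2B1 ratios lay above all control ratios. This follows from Ucp1 being higher, and Ucp2 lower, in every A2B1 library than in every control. The means differed by 5.66, and the exact two-sided permutation test over the 20 splits gave p = 0.1, the smallest possible. That p-value was fixed by the separation of the single genes and adds no separate support. Leaving out 1 library gave differences of 5.06 to 6.33.

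Dio2 (ENSMUSG00000007682, chromosome 12, 90724552 to 90738438, minus strand) encodes the deiodinase that converts thyroxine into active thyroid hormone inside the cell and is induced by cAMP in brown fat. It had 5.08, 7.13 and 3.80 CPM in A2B1 libraries 1 to 3 and 16.3, 4.97 and 2.03 CPM in controls 1 to 3. Controls held both the highest and the lowest value, 8.01-fold apart, while A2B1 libraries lay within 1.87-fold. The log2 fold change was -0.54 (SE 0.75, 95% interval -2.37 to 1.30; adjusted p = 0.695, edgeR). Its sign rested on control 1, the library with most lymphocyte markers: without it the value was 0.61 (adjusted p = 0.526), and limma-voom with sample weights gave 0.15. Exons of Dio2 overlap Gm26512 on the other strand, which had 1.79% to 10.8% as many counts.

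Letmd1 (ENSMUSG00000037353, chromosome 15, 100469023 to 100479164, plus strand), a mitochondrial membrane protein needed for brown fat mitochondria and heat production in mice, had the smallest spread of the members among the A2B1 libraries. It had 49.7, 48.0 and 48.7 CPM in A2B1 libraries 1 to 3 and 36.5, 41.8 and 40.3 CPM in controls 1 to 3. The groups did not overlap, and the coefficient of variation was 1.84% in A2B1 libraries and 6.90% in controls. The log2 fold change was 0.30 (SE 0.08, 95% interval 0.12 to 0.49), or 1.23-fold, with adjusted p = 0.101 by edgeR, 0.0161 by DESeq2 and 0.108 by limma-voom. It lay between 0.25 and 0.35 whichever library was left out.

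Kcnk3 (ENSMUSG00000049265, chromosome 5, 30588170 to 30625271, plus strand) encodes TASK-1, a background potassium channel that is enriched in thermogenic adipocytes of mice. It had 38.8, 41.2 and 40.8 CPM in A2B1 libraries 1 to 3 and 36.8, 33.0 and 27.4 CPM in controls 1 to 3. The groups were separate but near, since A2B1 library 1 was close to control 1. The log2 fold change was 0.31 (SE 0.12, 95% interval 0.03 to 0.60), with adjusted p = 0.180 by edgeR, 0.126 by DESeq2 and 0.137 by limma-voom. Without control 3 it was 0.21, and without control 1 it was 0.42. The Kcnk3 count is uncertain, because its exons overlap those of Gm9899 on the other strand and no source used here says whether counting used strand. Gm9899, named after its values were seen, had 7.25, 8.45 and 7.57 CPM in A2B1 libraries 1 to 3 and 3.98, 4.33 and 3.91 CPM in controls 1 to 3. It rose, with a log2 fold change of 0.93 (SE 0.14; edgeR's adjusted p = 0.0396), a call lost in each of the 6 fits without 1 library (adjusted p = 0.0808 to 0.128), and amounted to 10.8% to 20.5% of the Kcnk3 counts.

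Otop1 (ENSMUSG00000051596, chromosome 5, 38275972 to 38304217, plus strand), a proton channel known from sour taste cells and expressed in brown fat of mice, had higher values in A2B1 libraries. It stood at 38.9, 45.9 and 47.1 CPM in A2B1 libraries 1 to 3 and at 32.2, 21.7 and 12.7 CPM in controls 1 to 3. All A2B1 libraries were above all controls, which themselves differed 2.53-fold. The log2 fold change was 0.99 (SE 0.33, 95% interval 0.19 to 1.78), or 1.98-fold, with adjusted p = 0.160 by edgeR, 0.0188 by DESeq2 and 0.0775 by limma-voom. Without control 3, the lowest library, it was 0.71, and without control 1 it was 1.36.

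**Figure D4:**
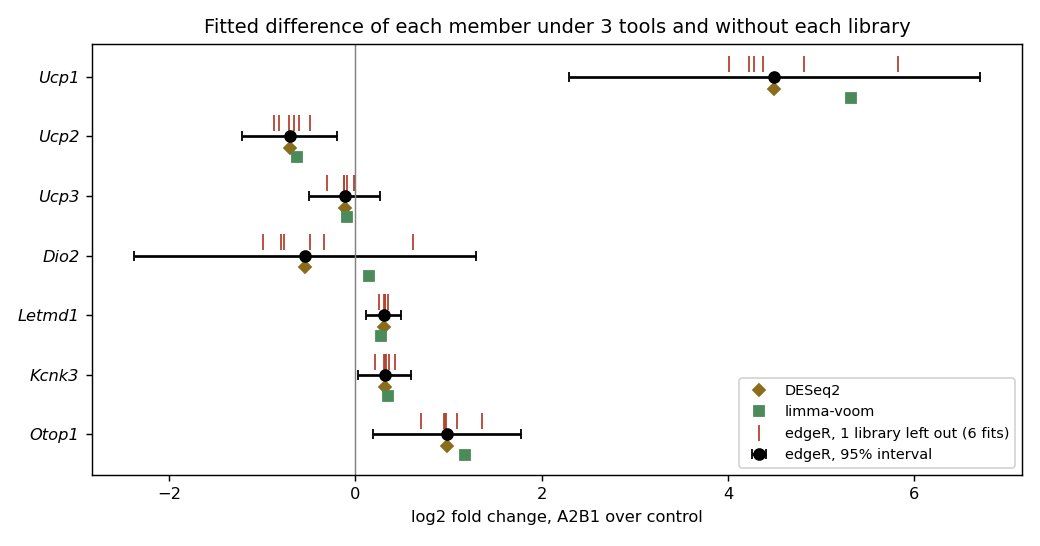
Log2 fold change of each member, A2B1 over control: black points with 95% intervals from edgeR, brown diamonds from DESeq2, green squares from limma-voom, and red ticks for the 6 edgeR fits that leave out 1 library. Ucp1 lies between 4.01 and 5.83 in those 6 fits, and Dio2 crosses 0.

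Ordered by level per kilobase, controls ran from Ucp3 at 30.8 ± 0.773 RPKM through Ucp2 at 19.6 ± 5.28, Letmd1 at 15.8 ± 1.09, Kcnk3 at 8.50 ± 1.24, Otop1 at 7.06 ± 3.10 and Dio2 at 1.33 ± 1.29 to Ucp1 at 0.179 ± 0.192 (SD, n = 3). Ucp2 and Letmd1 overlapped there, as did Kcnk3 and Otop1, and Dio2 and Ucp1. In A2B1 libraries the order was Ucp3 at 28.5 ± 6.53 RPKM, Letmd1 at 19.5 ± 0.359, Otop1 at 14.0 ± 1.41, Ucp2 at 12.0 ± 1.68, Kcnk3 at 10.6 ± 0.334, Ucp1 at 4.02 ± 1.60 and Dio2 at 0.918 ± 0.289 (SD, n = 3). Otop1 and Ucp2 overlapped, as did Ucp2 and Kcnk3. Within each control library Dio2 was above Ucp1, and within each A2B1 library Ucp1 was above Dio2. With the length of all exons, the A2B1 order after Ucp3 was Otop1 at 12.8 RPKM, Kcnk3 and Letmd1 at 10.1 each, and Ucp2 at 6.87, so that both Letmd1 and Ucp2 moved down.

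The pattern of Ucp1 over the 6 libraries was matched with every tested gene by the root mean square difference of centred log2 CPM. The closest genes were Olfr45, the lipid droplet gene Cidea and mt-Atp6, at 1.33, 1.57 and 1.58 log2 units, so none was near. The edgeR call of Olfr45 (adjusted p = 0.0194) was lost in each of the 6 fits without 1 library. Olfr45 had 0.680, 0.516 and 0.713 CPM in A2B1 libraries 1 to 3 and 0.0531, 0.0449 and 0.0597 CPM in controls 1 to 3. The mitochondrial gene mt-Atp6 had 1046 and 1126 CPM in controls 2 and 3 but 8056 CPM in control 1, within the range of the A2B1 libraries, and its adjusted p was 0.418.

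Genes of the beige and brown fat program were higher in part. Of 22 tested genes 6 rose and 0 fell, against 0.496% of all tested genes that rose; 16 did not pass, and the median log2 fold change over the list was 1.13 against 0.00 over all genes. Cidea had 91.7, 59.3 and 73.9 CPM in A2B1 libraries 1 to 3 and 21.3, 16.5 and 12.6 CPM in controls 1 to 3, so its highest library was the one where Ucp1 was lowest in the A2B1 group. Cox8b, a cytochrome oxidase subunit of brown fat and muscle, had 43.8, 28.1 and 35.6 CPM against 10.3, 11.6 and 7.69. The secreted factor Nrg4 rose by 0.67 (SE 0.09, adjusted p = 0.0334) and Acsf2, an acyl-CoA synthetase family member, by 0.57 (SE 0.08, adjusted p = 0.0375), both with small spread. Plin5, a lipid droplet coat of oxidative tissues, and Cpt1b, which imports fatty acids into mitochondria, rose by 1.70 and 1.33 (adjusted p = 0.0497 each). Exons of Nrg4 and Cpt1b overlap other genes, so their counts are uncertain. Leaving out A2B1 library 1, 2 or 3 left 0 calls in this list, leaving out control 1 or 2 left 1, and leaving out control 3 left 0. The median stayed between 0.92 and 1.28 in those fits. Library totals alone gave 3 calls, and DESeq2 gave 14, beside 16.2% of all genes called. These recounts for the list were chosen after seeing the data. The list itself was chosen with earlier results of these data known, so its share is no independent support.

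Regulators upstream of Ucp1 were examined next. Of 16 transcription regulators 0 passed in edgeR or limma-voom (median 0.38). In edgeR 6 had an unadjusted p under 0.05, beside 24.2% of all genes, and DESeq2 called 3 higher and 1 lower, beside 16.2%. Ppargc1a, Prdm16 and Ebf2 were counted both among these regulators and in the beige and brown fat list. The coactivator Ppargc1a had 26.2, 34.1 and 30.1 CPM in A2B1 libraries 1 to 3 and 12.1, 20.4 and 16.1 CPM in controls 1 to 3, without overlap (adjusted p = 0.0827). Zfp423, which represses the thermogenic program in white adipocytes of mice, had 33.3, 24.7 and 29.8 CPM against 44.3, 41.4 and 63.6 (adjusted p = 0.102). Of 18 genes of adrenergic input 1 rose in edgeR, the beta-3 receptor Adrb3 (log2 fold change 1.71, adjusted p = 0.0248). The other 17 did not pass (list median 0.11), and 0.496% of all genes rose. An unadjusted p under 0.05 was found for 3, beside 24.2% of all genes. Limma-voom called 2 higher, Adrb3 and Pde3b (adjusted p = 0.0439), beside 2.44% of all genes. DESeq2 called the same 2 higher and Mapk14 lower (adjusted p = 0.0145), beside 16.2% of all genes. The edgeR call of Adrb3 was lost in 5 of the 6 fits without 1 library and kept without A2B1 library 3, with log2 fold changes of 1.61 to 1.89. Exons of Adrb3 overlap Gm45470 on the other strand, which leaves its count uncertain. The nerve markers Th and Npy had 0 CPM in most libraries and Dbh in all 6, while the Schwann cell gene S100b had an adjusted p of 0.754; 0 of 3 nerve and Schwann markers tested passed in any tool or had an unadjusted p under 0.05.

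Around Dio2, 10 genes of thyroid hormone handling were tested, of which 0 passed in edgeR or limma-voom (median 0.26). In edgeR 4 had an unadjusted p under 0.05, beside 24.2% of all genes, and DESeq2 called 3 higher, beside 16.2%. Both counts held Dio1, whose groups overlapped. It had 21.8, 0.113 and 2.41 CPM in A2B1 libraries 1 to 3 and 0.213 to 0.345 CPM in controls. The thyroid hormone receptor Thrb had 35.7, 48.5 and 42.6 CPM in A2B1 libraries 1 to 3 and 24.1, 33.6 and 20.1 CPM in controls 1 to 3 (adjusted p = 0.137). Its groups did not overlap, unlike those of Dio2 itself.

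Relatives of the members by sequence family had list medians near 0, with single genes farther out. Of 8 carriers related to the uncoupling proteins 0 passed in any of the 3 tools (median 0.13). In edgeR 1 had an unadjusted p under 0.05, beside 24.2% of all genes. The oxoglutarate carrier Slc25a11 had a log2 fold change of 0.28 (adjusted p = 0.158), with exons overlapping Rnf167, and the kidney mitochondrial carrier Slc25a30 had 0.46 (adjusted p = 0.249). Of 7 tested relatives of Letmd1, Kcnk3 and Otop1, 0 passed in any tool and 0 had an unadjusted p under 0.05 in edgeR (median 0.06). The potassium channels Kcnk13 and Kcnk6 had -0.90 and -0.34 (adjusted p = 0.240 and 0.253). Both lay below all controls in every A2B1 library, as did 15.5% of all genes. Otop3 and Kcnk9 were at 0 in every library.

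Creatine and calcium cycling, which can produce heat without UCP1, showed a median of -0.24, which leaving out 1 library moved to -0.11 (without A2B1 library 1 or control 2) and at most to -0.34 (without A2B1 library 2). Of 12 tested genes 0 passed in edgeR or limma-voom. In edgeR 4 had an unadjusted p under 0.05, beside 24.2% of all genes, and DESeq2 called 3 lower, beside 16.2%. Among those 4 was Atp2a1, which is also in the skeletal muscle marker list. It had 21.2 CPM in control 3 and 0.134 to 0.372 CPM elsewhere. The calcium release channels Ryr1 and Itpr1 differed by -3.14 and -0.46 on the log2 scale, with adjusted p-values of 0.0690 and 0.0798. Exons of both overlap other genes. Ryr1, a gene of skeletal muscle, was highest in control 3, at 4.74 CPM, where the muscle markers were highest. The part of muscle RNA in that difference was not tested.

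**Figure D5:**
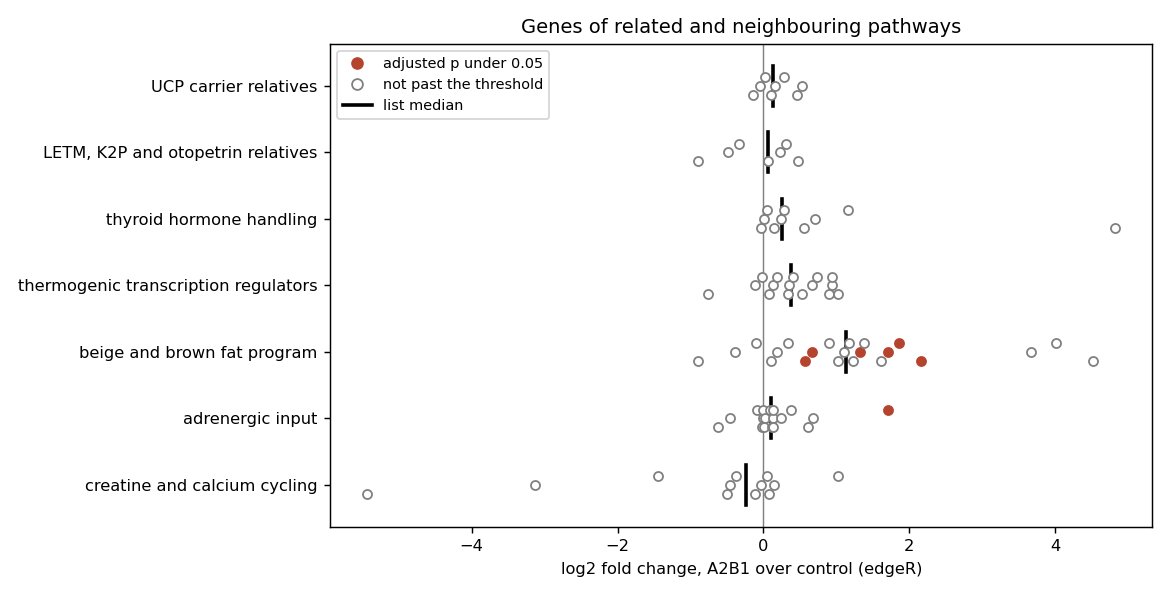
Log2 fold change (edgeR, A2B1 over control) of each tested gene in 7 lists, with list medians as black bars and genes past an adjusted p of 0.05 in red. The beige and brown fat program has a median of 1.13 with 6 red points, adrenergic input has 1 and the other lists have 0.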

How the data were processed

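RNA from frozen inguinal fat was made into libraries with an Illumina TruSeq kit, per the labels' protocols. The submitters' processing notes name Bowtie and mm10, with no version; no source used here gives the counting program, annotation or strand setting. The authors deposited raw read counts per gene, whole numbers in 1 column per library, per the file headers; 0 columns belonged to other samples. They may be rounded estimates, so genes with overlapping exons are uncertain.

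Groups came from the labelled treatment. In R 4.3.3, edgeR 4.0.16 was fitted to all genes (filterByExpr with a minimum count of 10 and total of 15, TMM, robust quasi-likelihood test, group as the only term, two-sided, Benjamini-Hochberg adjustment over 19146 genes). The standard error is the log2 fold change divided by the square root of F. DESeq2 1.42.0 and limma 3.58.1 (voom with sample weights) were alternatives, beside other scalings, filters and leaving out each library. Without molecular identifiers, intervals per library are for counting error alone. Coordinates, lengths and overlaps came from GENCODE M21, promoters from RefSeq. The scripts were tested on simulated counts.

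The members and gene lists were chosen with earlier results of these data known. Named were all members, each list's members past the threshold (where there were none, the 2 of lowest p) and the 3 genes closest in pattern to Ucp1 or to another member with an absolute log2 fold change of at least 1, which held for Ucp1 alone. Some genes this rule names are not reported here. Any other gene was picked with its values in view.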

Additional observations from a re-analysis of the deposited data

How the results depend on the processing

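The 6 members other than Dio2 kept their sign in all 13 alternative fits. DESeq2 took Ucp1 (4.50, adjusted p = 5.14e-08), Ucp2 (-0.71), Letmd1 (0.30) and Otop1 (0.98) past the threshold, and called 2919 genes in all, 1332 higher and 1587 lower. Limma-voom took Ucp1 past it (5.32, adjusted p = 0.0305) and reversed Dio2 (0.15). The cause of these differences between tools was not tested. Scaling by library totals gave 49 higher and 251 lower calls, against 95 and 254 of the 349 with TMM. Leaving out 1 library left 10 to 57 genes past the threshold in all, with fewer libraries in each fit, and moved Dio2 between -0.99 and 0.61; it was positive only without control 1. With an offset of 1 the difference in the Ucp1 to Ucp2 ratio was 5.60. Fits without 1 library leave 2 libraries in a group, and the exact permutation test of the ratio then cannot go below p = 0.1. The fits without 1 library for the called genes of the lists, Gm9899 and Olfr45 were chosen after seeing the data. No paired analysis was possible because the labels give the groups no shared replicate numbers. Depth limits Ucp1 most, with 5 to 49 counts in controls.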

Other observations

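Several genes of the lists were high in 1 library. Slc27a2, a fatty acid transport protein, had 124 CPM in A2B1 library 1, 1.57 and 19.6 CPM in A2B1 libraries 2 and 3, and 1.74 to 2.63 CPM in controls. The same library was highest for the deiodinase Dio1 (21.8 CPM), the kininogen Kng2 (36.2 CPM) and the fatty acid elongase Elovl3 (60.5 CPM), whose values in A2B1 library 2 were 0.11, 0.50 and 0.34 CPM. The keratins Krt8 and Krt18 had 18.3 and 20.6 CPM in A2B1 library 1 and 4.02 and 2.65 CPM in A2B1 library 3, with at most 0.58 CPM in the other 4 libraries. Epcam, another epithelial marker, was lowest in A2B1 library 1, at 0.0724 CPM. Of the 4 tested epithelial markers 0 passed in edgeR, 2 had an unadjusted p under 0.05 (24.2% of all genes) and DESeq2 called 3 (16.2%). Krt14 was at 0 throughout. These genes were chosen after their values were seen.

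Most vascular markers were lower in A2B1 libraries. A log2 fold change above 0 was found for 1 of 6 smooth muscle and mural markers (median -0.53) and 1 of 6 endothelial markers (median -0.36). The smooth muscle and mural sum was 507 to 630 CPM in A2B1 libraries and 740 to 1199 CPM in controls. The endothelial sums overlapped, at 726 to 874 and 828 to 1194 CPM. Of 6 smooth muscle and mural markers, the actin Acta2 fell by 1.36 on the log2 scale (adjusted p = 0.0375 in edgeR). The other 5 did not pass, and 1.33% of all genes fell. The Acta2 call was lost in each of the 6 fits without 1 library. In edgeR 4 of the 6 markers had an unadjusted p under 0.05 (24.2% of all genes), and DESeq2 called 3 lower (16.2%). The mural marker Cspg4 lay above all controls in every A2B1 library (log2 fold change 0.36, adjusted p = 0.161). Of 6 endothelial markers 0 passed in edgeR, 3 had an unadjusted p under 0.05 (24.2% of all genes) and DESeq2 called 1 (16.2%). Egfl7 was at -0.37 and Pecam1 at -0.47 (edgeR's adjusted p = 0.0935 and 0.167), but Kdr at 0.06 with overlapping groups. Exons of Egfl7 overlap other genes, so its count is uncertain. Among 8 adipocyte markers leptin (Lep) fell, with 884 to 1110 CPM in A2B1 libraries and 3232 to 4538 CPM in controls (log2 fold change -1.90, adjusted p = 0.0166). The other 7 did not pass in edgeR, and 1.33% of all genes fell. The Lep call was kept without control 1 or control 3 and lost in the other 4 fits (log2 fold changes of -2.00 to -1.74). Of the 8 markers, 5 had an unadjusted p under 0.05 in edgeR (24.2% of all genes). DESeq2 called 2 of them higher and 2 lower (16.2%).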
